A study of Mus musculus with 18 samples.

Results

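Transcript levels of 33 cell cycle genes were followed in 2 mouse ovarian cancer lines and in tumors grown from one of them. The genes were taken from a fixed list and matched by symbol. All 33 were found among the 54752 genes of the count table, and all 33 passed the filter on low counts in each comparison. They were split by role into 15 genes of the G1/S transition and DNA replication (the S phase genes) and 18 genes of the G2 phase and mitosis (the mitotic genes). The series holds 18 RNA sequencing libraries in 6 groups of 3. HM-1 cells, an ovarian cancer line of the B6C3F1 strain, were sequenced from culture as control and as Cd276KO. ID8 cells, an ovarian cancer line of the C57BL6 strain, were sequenced from culture as control and as Cd276KO. HM-1 control and HM-1 Cd276KO tumors were grown in B6C3F1 mice after an intradermal inoculum of 1000000 cells and collected at day 10. Cd276 encodes B7-H3, a surface protein of the B7 family of immune ligands. The labels do not say how the knockout was made or how many clones it comes from, and the tumors contain cells of the host. Libraries are labelled biological replicates, without naming separate cultures or animals, so each p-value reflects only how far these libraries spread.

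Cells enter S phase when cyclin D (Ccnd1) and cyclin E (Ccne1, Ccne2) kinases release E2F transcription factors such as E2f1 from the retinoblastoma protein. E2F targets include the origin licensing factor Cdc6, the Mcm2 to Mcm7 helicase with its partner Cdc45, the sliding clamp Pcna, and the nucleotide synthesis enzymes Rrm2 and Tyms. Genes of the second wave, among them Ccnb1 and Cdk1, peak later and depend on the DREAM and MuvB complexes and on Foxm1. Their summed transcript level is widely read as a measure of how much of a cell population is dividing.

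The promoters of some members are shown because the 2 waves are known to carry different sequence elements. RefSeq promoters (assembly GRCm38.p6, 250 bases before to 50 bases after the start) were available for 12 S phase and 14 mitotic genes. Each sequence below reads 5' to 3' on the strand of the gene and ends at the start site or before the first annotated exon base. Capitals mark matches on either strand to the CCAAT box (CCAAT), to the cell cycle homology region (CHR, TTTGAA or TTTAAA) and to an E2F word (TTTGGCGC, TTTCGCGC, TTTCCCGC or TTTGCCGC). The stretches lie at chr10:69352939-69353062 (minus strand) for Cdk1, chr4:118437353-118437493 (minus strand) for Cdc20, chr11:99024190-99024339 (minus strand) for Top2a, chr11:98908001-98908150 (plus strand) for Cdc6, chr6:88898781-88898930 (minus strand) for Mcm2 and chr1:20820313-20820462 (minus strand) for Mcm3.
Cdk1: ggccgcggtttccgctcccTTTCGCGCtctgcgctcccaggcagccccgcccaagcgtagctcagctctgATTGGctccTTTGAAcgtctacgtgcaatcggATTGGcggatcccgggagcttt
Cdc20: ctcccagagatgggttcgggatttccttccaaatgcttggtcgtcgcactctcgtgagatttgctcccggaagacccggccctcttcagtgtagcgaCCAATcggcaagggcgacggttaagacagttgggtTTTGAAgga
Top2a: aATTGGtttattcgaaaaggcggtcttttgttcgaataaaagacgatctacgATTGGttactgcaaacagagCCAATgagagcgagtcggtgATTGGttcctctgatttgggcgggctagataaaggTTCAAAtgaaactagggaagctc
Cdc6: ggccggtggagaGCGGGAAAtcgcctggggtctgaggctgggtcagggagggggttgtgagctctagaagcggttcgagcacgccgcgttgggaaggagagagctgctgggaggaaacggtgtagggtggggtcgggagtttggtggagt
Mcm2: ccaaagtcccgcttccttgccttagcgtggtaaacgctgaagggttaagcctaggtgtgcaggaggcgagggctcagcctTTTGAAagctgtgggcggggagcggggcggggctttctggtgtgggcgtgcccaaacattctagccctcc
Mcm3: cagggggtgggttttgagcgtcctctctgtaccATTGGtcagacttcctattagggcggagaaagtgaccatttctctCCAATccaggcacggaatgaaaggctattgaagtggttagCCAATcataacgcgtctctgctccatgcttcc

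The 3 mitotic genes shown carry both a CCAAT box and a CHR word, and Cdk1 an E2F word too. Cdc6 carries an E2F word, Mcm2 a CHR word and Mcm3 CCAAT boxes in the bases shown. These genes are examples picked without a rule, and other members differed. Ccnb2, Bub1, Bub1b, Aurka and Cenpe had no CHR word in the 150 bases before the start, and Birc5 had none of the words there. Over the whole windows the S phase genes Cdc45, Mcm2, Mcm5 and Rrm2 carried both a CCAAT box and a CHR word. Over the whole windows, a CHR word stood in 13 of the 14 mitotic and 5 of the 12 S phase promoters, and in 27.6% of all 32851 promoters. The CCAAT box stood in 13 of 14 mitotic and 8 of 12 S phase promoters, against 37.4% of all. E2F words stood in 5 of 12 S phase promoters (Cdc6, Mcm3, Mcm5, Mcm6 and Mcm7) and in 1 of 14 mitotic promoters (Cdk1), against 2.26% of all. Before the start alone, a CHR word stood in 10 of 14 mitotic and 4 of 12 S phase promoters (25.2% of all). E2F words then stood in 4 of 12 S phase and 1 of 14 mitotic promoters (1.86% of all). The member counts for the CCAAT box were the same there. All of these are letter matches and not measured binding sites.

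Total counts ran from 17349082 to 30959773 per library, and all 33 genes were counted in every group. Cd276 itself (chr9:58524298-58555437, GRCm38) stood at 74.2, 93.5 and 91.5 CPM (counts scaled to a library total of 1000000) in HM-1 control cultures and at 47.2, 47.7 and 44.8 CPM in those labelled Cd276KO. In ID8 it stood at 21.1, 21.1 and 20.6 CPM against 18.3, 18.8 and 21.0 CPM, so the ID8 libraries labelled Cd276KO did not show a lower Cd276 transcript level by the test (a log2 difference of -0.04 with an SE of 0.08 and an adjusted p of 0.692). In tumors it stood at 142, 107.4 and 115.7 CPM against 73.2, 97.2 and 89.5 CPM. A transcript level does not show whether the protein is made. All knockout statements below refer to libraries labelled Cd276KO. Among the cultures, HM-1 control library 1 stood apart, and its chi-square, averaged per gene, was 65.0 and 63.9 against libraries 2 and 3, which differed from each other by 1.57. Among the tumors, control library 3 gave 134 and 81.3 against libraries 1 and 2, which differed by 41.1.

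**Figure D1:**
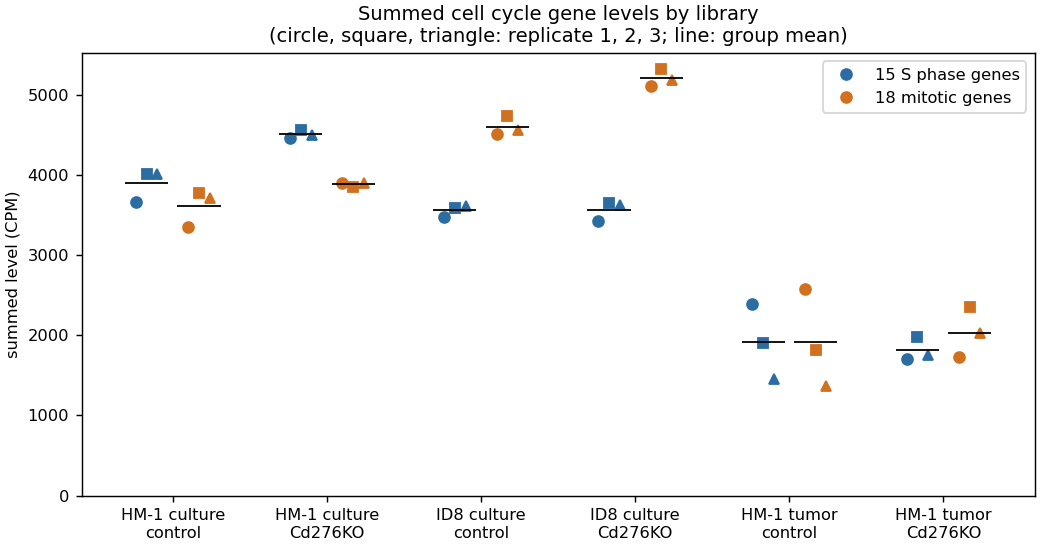
Summed level of the 15 S phase genes (blue) and of the 18 mitotic genes (orange) in each of the 18 libraries, in CPM, with the mean of each group as a line. The 6 tumor libraries lie between 1456 and 2390 CPM for S phase genes, below the 12 culture libraries, which start at 3420 CPM.

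In HM-1 cultures labelled Cd276KO, the replication genes Mcm2, Mcm5 and Rrm2, the regulators E2f1 and Foxm1 and the cyclin Ccna2 were higher than in controls, and Cdc45 and Tyms were lower. Of the 15 S phase genes 4 rose and 2 fell, where 11.6% of the 12457 genes tested rose and 16.1% fell. Of the 18 mitotic genes 2 rose and 0 fell. The median log2 fold change was 0.11 over the S phase genes and 0.12 over the mitotic genes, against -0.01 over all genes tested. Summed levels ran from 3657 to 4017 CPM in control and from 4457 to 4566 CPM in Cd276KO cultures for the S phase genes, and from 3354 to 3773 and 3850 to 3902 CPM for the mitotic genes.

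Foxm1 (chr6:128362967-128376146), the transcription factor of the G2 phase, stood at 104.8, 155 and 153.3 CPM in control and at 261.8, 271.1 and 261.3 CPM in Cd276KO cultures. The groups did not overlap, and Foxm1 had the largest change among the 33 genes, with a log2 difference of 0.99 (SE 0.15, adjusted p = 0.0038); values in parentheses below are log2 fold changes with their SE. Mcm2 (chr6:88883474-88898780), a subunit of the replicative helicase, stood at 236.3, 297.6 and 294.1 CPM in control and at 385.2, 419.7 and 409.9 CPM in Cd276KO cultures. All 3 Cd276KO libraries were above all 3 controls (0.59, SE 0.10, adjusted p = 0.00666). Rrm2, the small subunit of ribonucleotide reductase, stood at 430.7, 426 and 433.6 CPM against 638.8, 610.7 and 604.6 CPM, a tight separation (0.56, SE 0.07, adjusted p = 0.00164). Mcm5, another helicase subunit, rose from 273.8, 299.1 and 285.6 CPM to 378.4, 410.2 and 404.3 CPM (0.52, SE 0.07, adjusted p = 0.00331). Its partner Cdc45 moved the other way, from 53.9, 49.2 and 49.0 CPM to 37.9, 39.7 and 39.2 CPM (-0.34, SE 0.08, adjusted p = 0.0226). The helicase subunits and their partner thus did not share one direction.

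E2f1 (chr2:154559407-154569892), an activator of replication genes, stood at 62.3, 58.4 and 55.0 CPM in control and at 70.5, 76.4 and 69.1 CPM in Cd276KO cultures, without overlap (0.34, SE 0.09, adjusted p = 0.0296). The call of E2f1 was lost in 8 of its 14 alternatives, namely upper-quartile scaling, no filter, the replicate block, without control library 2 or 3 and without any one Cd276KO library, with an adjusted p of 0.0725 to 0.122. Ccna2, the cyclin of S and G2 phase, differed by 0.33 (SE 0.07, adjusted p = 0.0142) and lost its call in 7 of 14, namely no filter, the fit over all 18 libraries, the replicate block, without control library 2 and without any one Cd276KO library (adjusted p = 0.0566 to 0.165). The thymidylate synthase gene Tyms was lower (-0.27, SE 0.08, adjusted p = 0.0475). Both lower calls, Cdc45 and Tyms, were lost without control library 2 or any one Cd276KO library. Cyclin B1 (Ccnb1, chr13:100778650-100786570), the mitotic partner of Cdk1, stood at 154.9, 164.4 and 165.3 CPM against 164.3, 161.5 and 161.1 CPM, and the groups overlapped.

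Mki67 (chr7:135689784-135716361), the gene of the proliferation antigen Ki-67, stood at 220.7, 409.2 and 382.9 CPM in control and at 472.7, 472.7 and 511.9 CPM in Cd276KO cultures. The groups did not overlap, but control library 1 was far below the other controls and the difference was not called (0.57, SE 0.21, adjusted p = 0.0897). Ccnd1 (chr7:144929931-144939925), the cyclin that starts G1 progression, showed the same layout, at 610.3, 930.9 and 931 CPM against 1004, 1027 and 1021 CPM (0.35, SE 0.16, adjusted p = 0.145). Without control library 1, Mki67 (0.35) and Ccnd1 (0.18) were called. In that fit 7 S phase genes rose and 4 fell, 9 mitotic genes rose and 4 fell, and 28.6% of all genes rose and 30.4% fell. The 6 genes called higher and the 2 called lower with all 6 libraries kept their calls in it. Among the calls gained, Cdk1 (-0.10), Cdc20 (-0.11), Birc5 (-0.15) and Top2a (-0.19) were lower and Ube2c (0.33), Ccnb2 (0.20) and Bub1b (0.14) were higher, so the mitotic genes were mixed in direction.

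Of 30 further S phase genes in HM-1 cultures 1 rose and 1 fell, where 11.6% of all genes rose and 16.1% fell. The gene that rose was the checkpoint kinase gene Chek1 (0.31, SE 0.10, adjusted p = 0.0498). Of 30 further mitotic genes 5 rose and 0 fell, including the centrosome kinase Nek2 (0.91, SE 0.18), the kinetochore protein gene Cenpf (0.70, SE 0.20) and the spindle checkpoint gene Mad2l1 (0.46, SE 0.08). Of 9 inhibitors and pocket proteins tested, the p27 gene Cdkn1b rose, at 42.5, 49.3 and 50.3 CPM against 80.5, 85.4 and 76.3 CPM (0.81, SE 0.09, adjusted p = 0.00108). The p21 gene Cdkn1a fell, at 282.7, 249.5 and 262 CPM against 183.7, 184.1 and 172.5 CPM (-0.52, SE 0.08, adjusted p = 0.00475). The 2 inhibitors of cyclin-dependent kinases thus moved in opposite directions. Myc, an inducer of growth genes, was the single call among the 4 G1 cyclins, kinases and inducers tested and was lower (-0.30, SE 0.07). Of 14 alternatives each, the call of Chek1 was lost in 10, that of Myc in 8, that of Cenpf in 5 and that of Nek2 in 1, whereas those of Cdkn1a, Cdkn1b and Mad2l1 were kept in all.

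**Figure D2:**
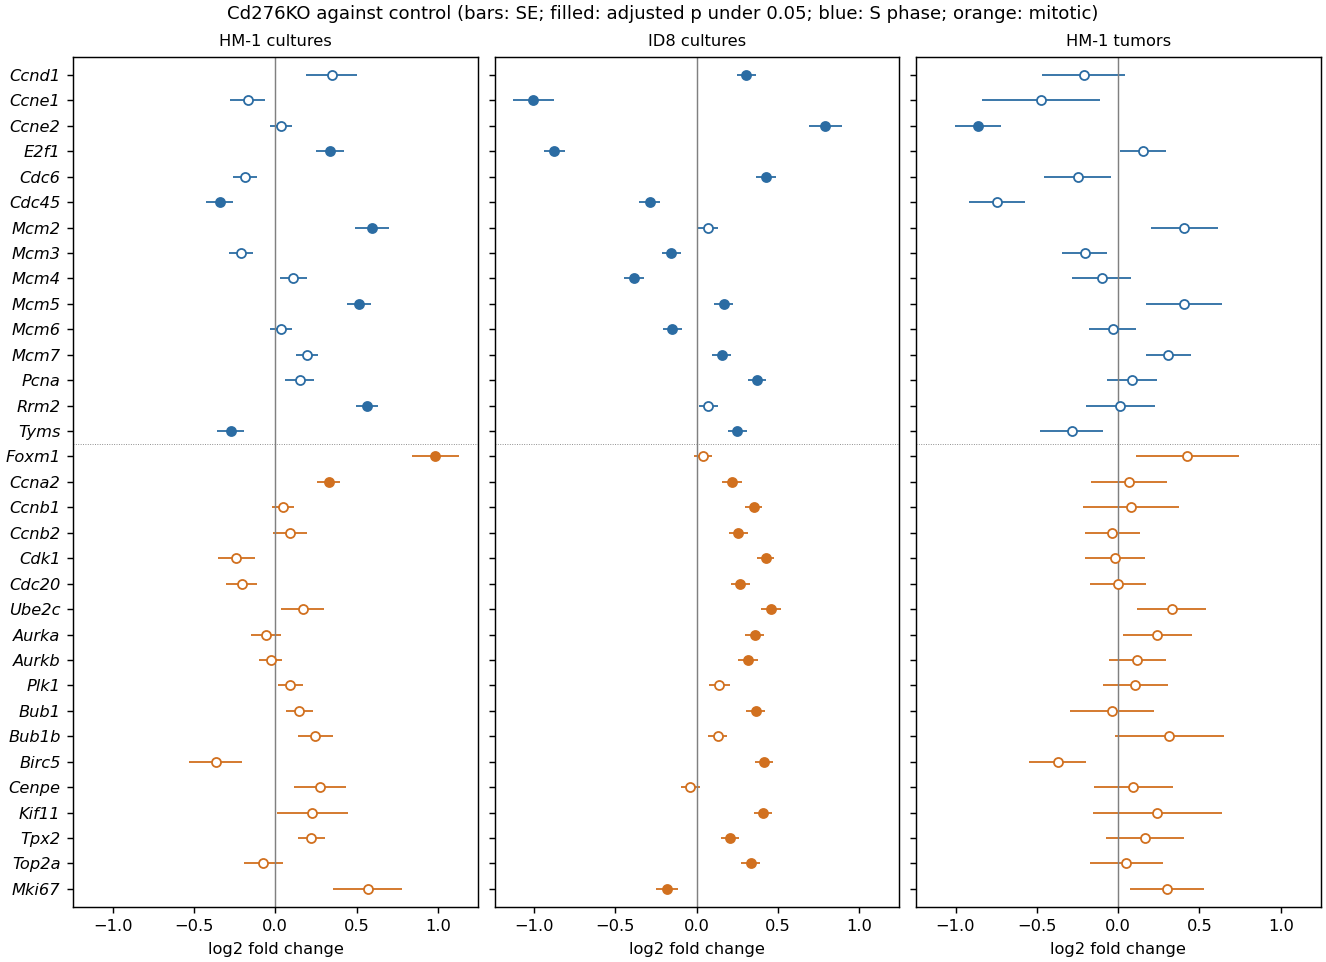
Log2 fold change (Cd276KO against control) of the 33 genes in HM-1 cultures, ID8 cultures and HM-1 tumors, with SE bars, filled where the adjusted p was under 0.05. In ID8, 13 of the 18 mitotic genes are filled and lie to the right of 0, whereas in tumors Ccne2 alone is filled.

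In ID8 cultures labelled Cd276KO, most mitotic genes were modestly higher, whereas the S phase genes split. Of the 18 mitotic genes 13 rose and 1 fell, where 29.4% of the 12932 genes tested rose and 31.3% fell. Their median log2 fold change was 0.29, against -0.01 over all genes. Of the 15 S phase genes 7 rose and 6 fell, with a median of 0.07. The summed mitotic level ran from 4508 to 4734 CPM in control and from 5115 to 5319 CPM in Cd276KO cultures, while the summed S phase level overlapped (3477 to 3612 and 3420 to 3646 CPM). In the fit over all 18 libraries, 2 mitotic genes rose and 0 fell, and 3 S phase genes rose and 3 fell, where 10.9% of 16526 genes rose and 14.9% fell.

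Among the mitotic genes, Ube2c, the ubiquitin-conjugating enzyme of the anaphase-promoting complex, stood at 233.7, 246.3 and 256 CPM in control and at 302.7, 324.7 and 330.9 CPM in Cd276KO cultures (0.46, SE 0.06, adjusted p = 5.39e-07). Cdk1, the mitotic kinase, stood at 312.5, 321.1 and 315 CPM against 409, 395.4 and 402.4 CPM (0.42, SE 0.05, adjusted p = 4.62e-07). The groups were separate for both genes. The survivin gene Birc5 (0.42, SE 0.05) and the spindle motor gene Kif11 (0.41, SE 0.06) followed closely. Ccnb1 stood at 241, 248.1 and 244.2 CPM in control and at 295.3, 299.3 and 292 CPM in Cd276KO cultures (0.35, SE 0.05, adjusted p = 6.19e-06). The other 8 genes called higher, Ccna2, Ccnb2, Cdc20, Aurka, Aurkb, Bub1, Tpx2 and Top2a, lay between 0.20 (Tpx2) and 0.36 (Aurka and Bub1).

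Mki67 was the mitotic gene that fell in ID8, at 432.5, 429.2 and 383.4 CPM in control and 378.6, 356 and 305.7 CPM in Cd276KO cultures (-0.18, SE 0.07, adjusted p = 0.0293). Its call was lost without control library 1 (adjusted p = 0.12), control library 2 (0.0835) or Cd276KO library 3 (0.223). Foxm1 stood at 179.8, 198.5 and 178.3 CPM against 182.1, 181.9 and 177.6 CPM, and the groups overlapped. Plk1, Bub1b and Cenpe were not called either.

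The S phase split in ID8 ran through the regulators. E2f1 fell from 57.3, 59.6 and 60.2 CPM to 29.8, 29.9 and 32.0 CPM (-0.88, SE 0.07, adjusted p = 6.64e-11). All 3 Cd276KO libraries were far below the controls. Ccne1, one of the cyclins E, fell from 11.6, 10.8 and 13.1 CPM to 5.27, 4.84 and 6.74 CPM (-1.0, SE 0.12, adjusted p = 3.19e-07). The other cyclin E, Ccne2, rose from 72.1, 65.4 and 52.2 CPM to 113.9, 98.8 and 99.0 CPM (0.79, SE 0.10, adjusted p = 2.66e-05). The cyclin E paralogs thus moved in opposite directions, and Ccne2 was the more abundant of them in CPM.

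Among licensing and replication genes in ID8, Cdc6 rose from 75.9, 81.4 and 74.3 CPM to 91.4, 100 and 103.5 CPM (0.42, SE 0.06, adjusted p = 2.81e-06). Mcm4 fell from 311, 322.4 and 317.2 CPM to 209.9, 240.2 and 239.6 CPM (-0.39, SE 0.06, adjusted p = 8.01e-06). The 6 helicase subunits had no common direction, since Mcm5 and Mcm7 rose, Mcm3, Mcm4 and Mcm6 fell, and Mcm2 was not called (0.07, SE 0.06). Pcna (0.37, SE 0.06), Ccnd1 (0.31, SE 0.06) and Tyms (0.25, SE 0.06) rose, Cdc45 fell (-0.29, SE 0.06) and Rrm2 was not called. Ccnd1 stood at 231.8, 234.7 and 221.2 CPM in control and at 257.4, 283.6 and 264.8 CPM in Cd276KO cultures, without overlap.

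In the further lists of both phases most genes rose. Of 30 further S phase genes 21 rose and 1 fell, and of 30 further mitotic genes 21 rose and 1 fell. Over all genes tested in ID8, 29.4% rose and 31.3% fell. The primase gene Prim1 (0.62, SE 0.06) and the origin recognition gene Orc1 (0.64, SE 0.07) rose, whereas the polymerase gene Pola1 fell from 110.9, 119 and 107.6 CPM to 53.1, 57.2 and 52.9 CPM (-0.97, SE 0.06). The kinetochore gene Ndc80 (0.68, SE 0.06) and cyclin F (Ccnf, 0.52, SE 0.06) rose, and the chromokinesin gene Kif4 fell (-0.71, SE 0.06). Of 9 inhibitors and pocket proteins tested 3 rose and 2 fell, with the pocket protein gene Rbl2 at -0.49 (SE 0.06), the Cdk1-inhibiting kinase Wee1 at 0.32 (SE 0.07) and the p19 gene Cdkn2d at 0.24 (SE 0.07). Cdk4, the kinase partner of cyclin D, rose by 0.37 (SE 0.06) on the log2 scale.

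The knockout effect itself was compared between the lines in one fit over their 12 culture libraries. Of the 15 S phase genes 3 had a higher effect in ID8 than in HM-1 and 6 a lower one, where 19.8% of the 14208 genes tested were higher and 20.7% lower. Of the 18 mitotic genes 7 were higher and 2 lower. The S phase genes with the largest differences were E2f1 (ID8 minus HM-1 -1.22, SE 0.10, adjusted p = 1.5e-06), Ccne1 (-0.85, SE 0.18) and Ccne2 (0.74, SE 0.14). E2f1 had changed in opposite directions in the lines. The mitotic genes with the largest differences were Foxm1 (-0.96, SE 0.16, adjusted p = 0.000407), Birc5 (0.77, SE 0.17) and Mki67 (-0.76, SE 0.24, adjusted p = 0.0217). Without HM-1 control library 1, 3 S phase genes were higher and 7 lower, and 9 mitotic genes were higher and 2 lower, where 24% of all genes were higher and 25% lower. In the fit over all 18 libraries 3 S phase genes were higher and 1 lower and 2 mitotic genes were higher and 1 lower, where 12.2% of all genes were higher and 12.6% lower. The call of Ccne1 was lost in that fit (adjusted p = 0.0933), and that of Mki67 was lost in it (0.0681), without HM-1 Cd276KO library 3 (0.0521) and without ID8 Cd276KO library 3 (0.0615).

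**Figure D3:**
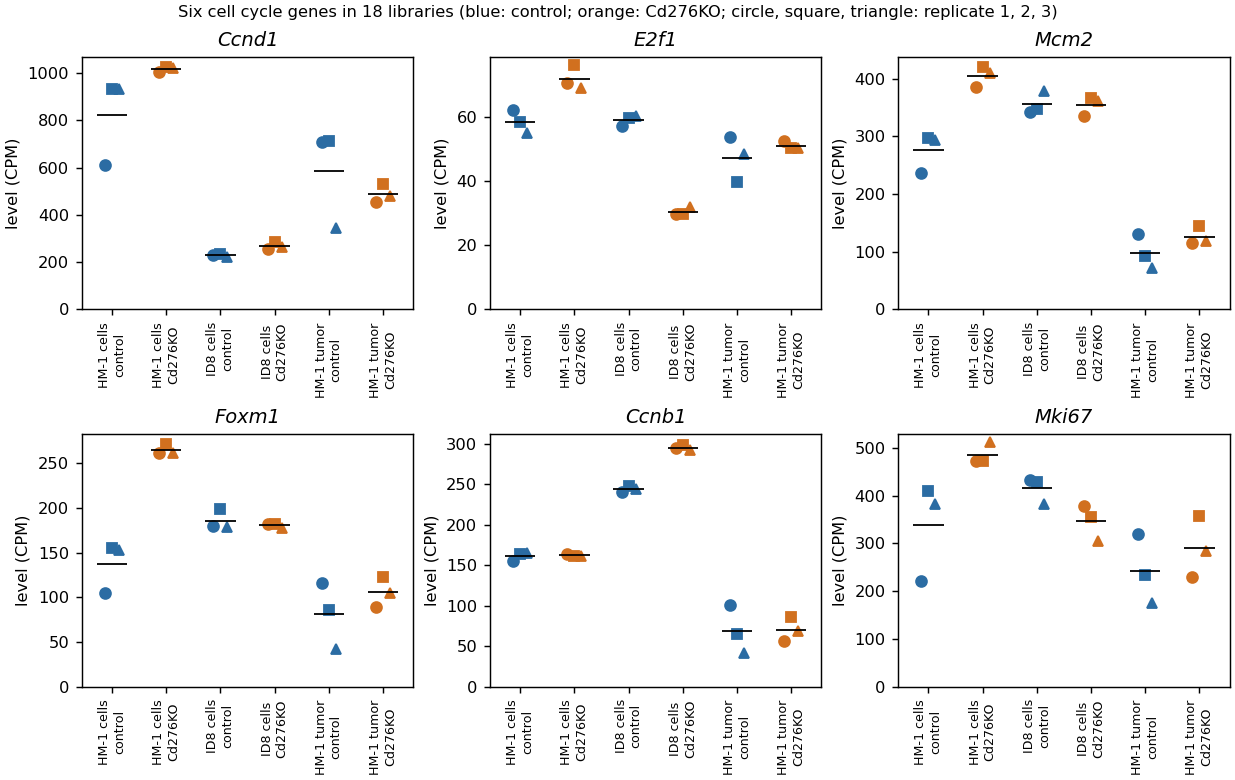
Level of Ccnd1, E2f1, Mcm2, Foxm1, Ccnb1 and Mki67 in each of the 18 libraries, in CPM on axes from 0, with group means as lines. E2f1 lies at 29.8 to 32.0 CPM in ID8 Cd276KO cultures and at 57.3 to 60.2 CPM in their controls, and HM-1 control library 1 (circle) is the lowest of its group for Ccnd1, Mcm2, Foxm1, Ccnb1 and Mki67.

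In HM-1 tumors labelled Cd276KO, Ccne2 was the single member called. Of the 15 S phase genes 0 rose and 1 fell, where 2.2% of the 15345 genes tested rose and 3.18% fell. Of the 18 mitotic genes 0 rose and 0 fell in edgeR, DESeq2 and limma alike, and 0 had an unadjusted p under 0.05. Ccne2 stood at 41.4, 31.1 and 35.4 CPM in control and at 18.4, 20.9 and 18.4 CPM in Cd276KO tumors, without overlap (-0.86, SE 0.14, adjusted p = 0.0294). That call was lost with the replicate block (adjusted p = 0.127), without control library 1 (0.0573) and without Cd276KO library 1 (0.13), 2 (0.0994) or 3 (0.172). It was kept without control library 3, where Ccnd1 was called lower as well (-0.46, SE 0.11, adjusted p = 0.0475). Exons of Ccne2 and Ccnd1 share 17.4% and 23.4% of their length with a gene on the other strand, and whether counting used strand is not given in the sources used here.

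Control tumors varied widely in the remaining genes. Ccnb1 stood at 100.6, 65.1 and 41.2 CPM in control and at 57.0, 85.5 and 69.3 CPM in Cd276KO tumors, so that the groups overlapped (0.08, SE 0.30). Mki67 stood at 319.7, 232.8 and 175.2 CPM against 229, 358.1 and 283 CPM (0.30, SE 0.23). Foxm1 stood at 115.7, 85.5 and 42.3 CPM against 88.8, 122.2 and 105.3 CPM (0.43, SE 0.32). In each case control library 1 was the highest and control library 3 the lowest of the controls.

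Summed levels showed the same order, with 2390, 1902 and 1456 CPM for S phase and 2582, 1816 and 1363 CPM for mitotic genes in control tumors 1, 2 and 3. Over the same libraries the summed level of 6 fibroblast markers was 11549, 3802 and 440 CPM and that of 10 leukocyte markers 1288, 948 and 795 CPM, while that of 8 epithelial ovarian cancer markers was 3890, 4287 and 5622 CPM. The 4 keratinocyte markers summed to 6.89 to 188 CPM in control tumors, with the 188 CPM in tumor 3, and to 7.07 to 7.44 CPM in Cd276KO tumors. The 4 skeletal muscle markers summed to 103, 0.891 and 1.93 CPM in control and to 79.8, 630 and 590 CPM in Cd276KO tumors. The part of cell composition in these levels was not tested. In bulk tissue, fewer cells of a type and less RNA per cell cannot be told apart.

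For the other replication regulators in tumors, E2f1 stood at 53.7, 39.9 and 48.4 CPM in control and 52.6, 50.3 and 50.5 CPM in Cd276KO tumors (0.15, SE 0.14). Mcm2 stood at 130.6, 91.9 and 71.6 CPM against 115.1, 145.2 and 117.9 CPM (0.41, SE 0.20, adjusted p = 0.271). Ccnd1 stood at 706.2, 710.5 and 343.7 CPM against 456.4, 531.2 and 478.5 CPM (-0.21, SE 0.25). None of these pairs of groups was separate. Of the 2 lists of 30 further genes, neither had a call in either direction, where 2.2% of all genes rose and 3.18% fell. Outside the members, Cdkn1b rose in tumors as well, from 90.7, 103.7 and 71.0 CPM to 178.8, 142 and 177.9 CPM (0.96, SE 0.16, adjusted p = 0.0328). That call was lost with the replicate block (adjusted p = 0.123), without control library 1 (0.066) or 2 (0.0523) and without Cd276KO library 1 (0.132), 2 (0.0848) or 3 (0.17).

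When the knockout effect in HM-1 tumors was set against that in HM-1 cultures over 12 libraries, 0 of 15 S phase genes were higher and 1 was lower, where 1.72% of 15623 genes were higher and 1.12% lower. The gene was Ccne2 (tumor minus culture -0.91, SE 0.16, adjusted p = 0.0112), which stood at 70.8, 72.1 and 75.1 CPM in control and 73.7, 72.0 and 71.8 CPM in Cd276KO cultures. Its adjusted p was 0.0514 without Cd276KO tumor library 3. Of the 18 mitotic genes 0 were called and 0 had an unadjusted p under 0.05, DESeq2 called 0 and limma called 1 lower. The gene that limma called was Foxm1, with a difference of -0.53 (adjusted p = 0.0257), for which edgeR gave -0.58 (SE 0.41, adjusted p = 0.596).

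Tumors stood far below cultures for nearly all members. In controls, 13 of 15 S phase and 15 of 18 mitotic genes were lower in tumors and 0 of either were higher, where 25.3% of the 14609 genes tested were higher and 16.6% lower. The median log2 fold change was -1.29 over the S phase and -1.11 over the mitotic genes, against 0.05 over all genes. Scaling by total counts or by the upper quartile moved the median of all genes up by 0.14 in both cases and the share of calls that were higher from 60.4% to 71.2% and 71.0%, and all 33 log2 fold changes stayed below 0. Genes called lower were then 13 S phase and 14 mitotic genes under total counts and 12 and 14 under the upper quartile. Ccnd1, E2f1, Foxm1, Cenpe and Mki67 were not called.

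**Figure D4:**
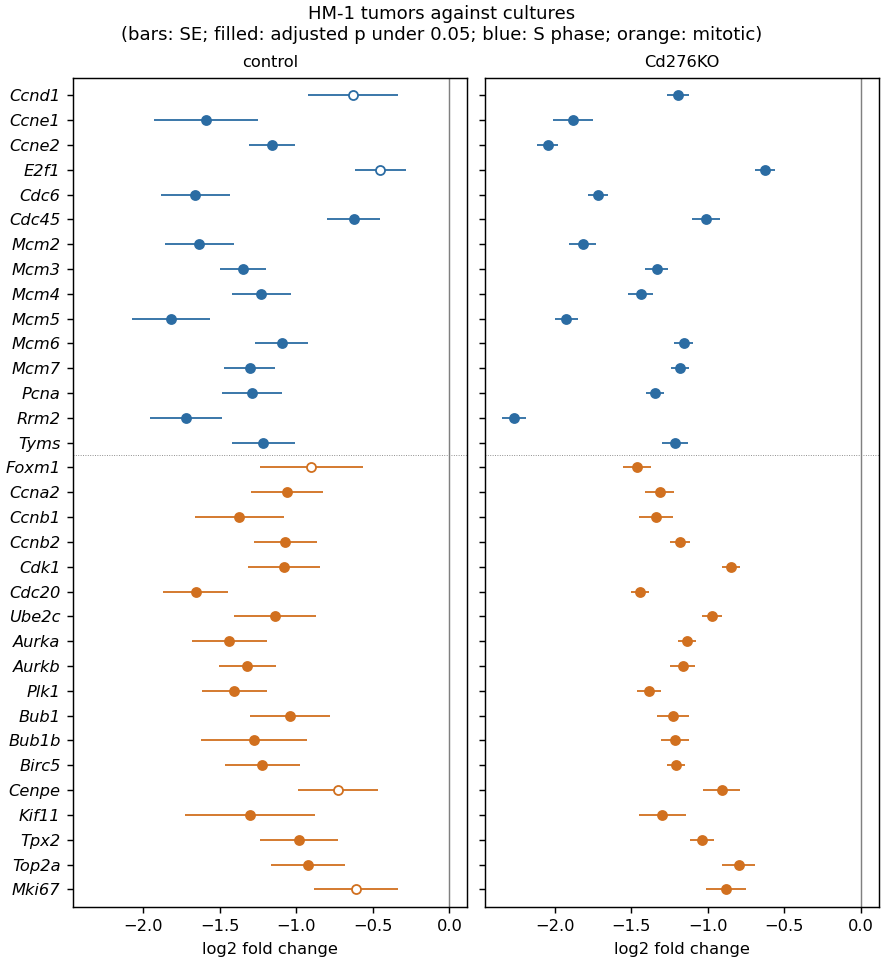
Log2 fold change of the 33 genes in HM-1 tumors against HM-1 cultures, for control and for Cd276KO libraries, with SE bars, filled where the adjusted p was under 0.05. All points lie left of 0, and the 5 open points are Ccnd1, E2f1, Foxm1, Cenpe and Mki67 in controls.

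The largest S phase differences in controls were in Mcm5, Rrm2, Cdc6 and Mcm2. Mcm5 stood at 273.8, 299.1 and 285.6 CPM in cultures and at 127.6, 77.6 and 63.7 CPM in tumors (-1.82, SE 0.25, adjusted p = 0.00191). Rrm2 stood at 199.9, 119.7 and 113.3 CPM in tumors, against 426 to 433.6 CPM in cultures (-1.72, SE 0.23, adjusted p = 0.00173). Cdc6 (-1.66, SE 0.22) and Mcm2 (-1.63, SE 0.22) followed. Every tumor library was below every culture library for these 4 genes. Among mitotic genes, Cdc20, the activator of the anaphase-promoting complex, stood at 192.2, 163.8 and 164.8 CPM in cultures and at 78.8, 55.5 and 48.4 CPM in tumors (-1.66, SE 0.21, adjusted p = 0.00142). The mitotic kinase genes Aurka (-1.44, SE 0.24) and Plk1 (-1.41, SE 0.21) and Ccnb1 (-1.37, SE 0.29) were next. Mki67 overlapped between cultures and tumors (-0.61, SE 0.28, adjusted p = 0.118), as did Foxm1 (-0.90, SE 0.34, adjusted p = 0.0684) and Ccnd1 (-0.63, SE 0.29, adjusted p = 0.126). Without tumor library 3 the counts were 13 and 16 lower, and without culture library 1 they were 12 and 16. Of all genes, 18.4% and 15.4% were lower in these fits.

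Among libraries labelled Cd276KO, all 15 S phase and all 18 mitotic genes were lower in tumors, where 41.2% of the 14330 genes tested were higher and 34.5% lower. The medians were -1.35 and -1.19, against 0.08 over all genes. No tumor library reached the level of any culture library for any of the 33 genes. The share of all genes separated in this way was not computed. Rrm2 stood at 123.9, 154.8 and 145.4 CPM in tumors and 638.8, 610.7 and 604.6 CPM in cultures (-2.26, SE 0.08, adjusted p = 1.03e-07). Ccne2 followed, at 18.4, 20.9 and 18.4 CPM against 73.7, 72.0 and 71.8 CPM (-2.04, SE 0.07, adjusted p = 9e-08). Next were Mcm5 (-1.92, SE 0.07), Ccne1 (-1.88, SE 0.13) and Mcm2 (-1.82, SE 0.09). The mitotic genes were led by Foxm1 (-1.46, SE 0.09), Cdc20 (-1.44, SE 0.06), Plk1 (-1.38, SE 0.08) and Ccnb1 (-1.34, SE 0.11). The smallest differences were in E2f1 (-0.63, SE 0.07), Top2a (-0.80, SE 0.11) and Cdk1 (-0.85, SE 0.06). Mki67 differed by -0.88 (SE 0.13).

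The further genes of both phases were mostly lower as well. In controls 26 of 30 further S phase and 25 of 30 further mitotic genes were lower in tumors and 0 were higher. In Cd276KO libraries 28 and 30 were lower. Of all genes tested, 16.6% were lower in controls and 34.5% in Cd276KO libraries. The replication factor gene Mcm10 (-1.87, SE 0.22) and Mybl2 (-1.88, SE 0.27), which encodes the B-Myb factor of the MuvB complex, were among the largest in controls. In the Cd276KO libraries E2f2 was the one gene of these lists that was higher in tumors. Among the inhibitors and pocket proteins, Cdkn1b (0.76, SE 0.16) and the retinoblastoma gene Rb1 (0.77, SE 0.15) were higher and Wee1 lower (-0.70, SE 0.19) in control tumors. The call of Wee1 was lost in 4 of 14 alternatives.

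Some genes of the G1 lists were seen in tumors and at 0 in the cultured line. Ccnd2, the second D-type cyclin, had 0 counts in all 6 HM-1 culture libraries and stood at 57.1, 28 and 13.6 CPM in control and 18.5, 29.8 and 22.9 CPM in Cd276KO tumors. Against a floor of 3 counts over a culture group it was at least 772-fold higher in control and at least 485-fold higher in Cd276KO tumors. ID8 cultures held 206.9 to 259.8 CPM. Cdkn2b, the p15 gene, also had 0 counts in the HM-1 cultures and was at least 52.1-fold and 32.6-fold higher in tumors.

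Leukocyte and fibroblast markers were higher in the tumors than in the HM-1 cultures. The 10 leukocyte markers summed to 0.34 to 0.434 CPM in HM-1 control cultures, with Cd3e, Nkg7, Itgam and S100a8 at 0, and to 795 to 1288 CPM in control tumors. In Cd276KO libraries the sums were 0.716 to 0.877 CPM in cultures, with Cd3e and Nkg7 at 0, and 298 to 614 CPM in tumors, and 6 of 10 markers reached a mean of 1 CPM in either tumor group. The 6 fibroblast markers summed to 2.72 to 3.59 and 0.621 to 0.973 CPM in the cultures and to 440 to 11549 and 1410 to 3366 CPM in the tumors, where 6 of 6 reached 1 CPM. The fibroblast list is not particular to host cells. In ID8 cultures it summed to 383 to 430 CPM in control and 358 to 372 CPM in Cd276KO, with 3 of 6 at 1 CPM. The 8 epithelial cancer markers summed to 5260 to 6329 and 5211 to 5521 CPM in the cultures and to 3890 to 5622 and 3519 to 4377 CPM in the tumors. Single markers did not all follow the sum. A mean of 1 CPM was reached by 4 of 8 in either culture group, 7 in control and 5 in Cd276KO tumors. Epcam had 0 counts in HM-1 control cultures and 105 in control tumors, and Wt1 had 1 and 105. Epcam was also at 0 in Cd276KO cultures. The part of host cells in the lower cell cycle levels was not tested.

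Per length of exon, the median level of the S phase genes was 60.8 RPKM (CPM per kilobase of exon) in HM-1 control cultures, 51.1 RPKM in ID8 control cultures and 22.4 RPKM in control tumors. The median of the mitotic genes was 47.9, 60.6 and 24.4 RPKM in the same groups. Ccne1 was the lowest S phase gene in all 6 groups, at 2.11 RPKM in ID8 Cd276KO cultures and 9.64 RPKM in HM-1 control cultures.

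The control libraries that stood apart were also examined by gene length, a choice made after their values were seen. In HM-1 control library 1, the log2 ratio to libraries 2 and 3 ran from -0.89 for Kif11 to 0.54 for Birc5 over the 33 genes. It fell with the exon length of the gene, with a Spearman rho of -0.67 over the 33 genes and -0.68 over 9899 genes of at least 5 CPM, all from the same library. Genes with long exons, such as Mki67 (10061 bases, -0.84) and Foxm1 (5754 bases, -0.56), were low, and Ube2c (2600 bases, 0.41) was high. In control tumor library 3 the rho was -0.44 over the 33 genes, of which 30 were below the mean of the other control tumors. Such relations were seen in other libraries too, where the rho over the 33 genes, each library against the others of its group, was -0.59 in ID8 control library 3, -0.58 in ID8 Cd276KO library 3, 0.53 in control tumor 2 and 0.52 in Cd276KO tumor 2. Shifts to one side were not particular to control tumor 3. Of the 33 genes, 0 were below the others of the group in control tumor 1 and 28 in control tumor 2. In Cd276KO tumors 1, 2 and 3 it was 32, 1 and 24. The part of exon length in the knockout comparisons was not tested beyond leaving these libraries out.

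**Figure D5:**
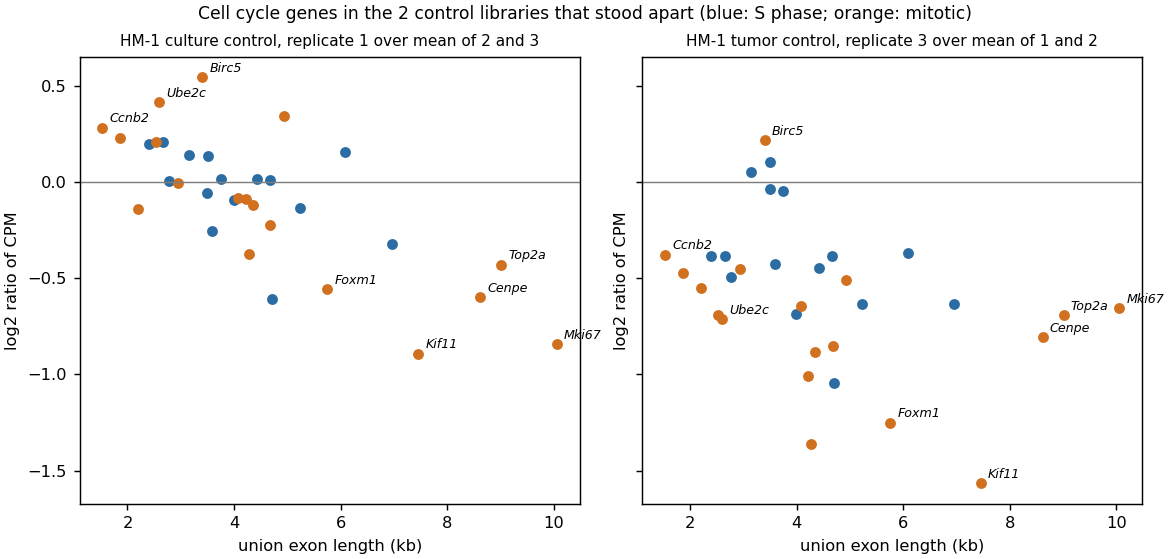
Log2 ratio of HM-1 control library 1 to the mean of libraries 2 and 3 (left) and of control tumor library 3 to the mean of libraries 1 and 2 (right) against union exon length in kilobases, 1 point per gene. Mki67 lies at -0.84 on the left, and Kif11 is the lowest gene in both panels, at -0.89 and -1.57.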

How the data were processed

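Total RNA from HM-1 and ID8 cultures and from frozen HM-1 tumors was sequenced in 18 libraries. The deposited values are raw read counts per Ensembl gene; per the submitters' processing notes, Trim Galore, STAR and HTSeq were used with the builds GRCm38 and mm10. Tool versions, settings and strand use were not given in any source used here. Counts were analysed as deposited, with symbols, coordinates and exon lengths from GENCODE M21 on GRCm38.

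Comparisons used edgeR 4.0.16 (TMM scaling, filterByExpr, robust quasi-likelihood fit and test) in R 4.3.3 on the 6 libraries of each pair of groups, or 12 for a difference between effects, without covariates. P-values were adjusted by Benjamini-Hochberg over all genes tested, a call is an adjusted p under 0.05, and SE is the log2 fold change divided by the root of its F statistic. Levels are CPM (counts scaled to a total of 1000000), divided by exon length in kilobases for RPKM. Depth was 17349082 to 30959773 counts per library, and no 2 replicates agreed within sampling noise (chi-square per gene at least 1.57). The procedure was tested on simulated data. Alternatives were other scalings, no filter, DESeq2 1.42.0, limma 3.58.1 (voom with quality weights), a fit over all libraries, a replicate block and leaving out each library.

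The members and lists were chosen with earlier results of these data known, so no list count is independent support. For each comparison the genes named were Ccnd1, E2f1, Mcm2, Foxm1, Ccnb1 and Mki67, up to 4 called S phase and 4 called mitotic genes with the largest change (3 for differences between effects), and up to 3 called genes of each further list; other names were chosen after their values were seen. Not every result of the further lists is reported here. Motif words were chosen after the files were available. Of the 33 members, 10 share exon bases with another gene.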

Additional observations from a re-analysis of the deposited data

Results flagged for a closer look

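The knockout effect differed between the lines by the interaction test (adjusted p under 0.05, 12 libraries) for 18 of the 33 genes. Of the 14208 genes tested, 19.8% were higher and 20.7% lower. The ID8 minus HM-1 differences on the log2 scale that were negative were -0.85 for Ccne1, -1.22 for E2f1, -0.54 for Mcm2, -0.51 for Mcm4, -0.36 for Mcm5, -0.50 for Rrm2, -0.96 for Foxm1 and -0.76 for Mki67. The positive ones were 0.74 for Ccne2, 0.60 for Cdc6, 0.51 for Tyms, 0.29 for Ccnb1, 0.65 for Cdk1, 0.46 for Cdc20, 0.40 for Aurka, 0.33 for Aurkb, 0.77 for Birc5 and 0.39 for Top2a. The effect in HM-1 tumors differed from that in HM-1 cultures for Ccne2 alone, by -0.91. Over all 15623 genes tested there, 1.72% were higher and 1.12% lower.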

How the results depend on the processing

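With each library left out in turn, HM-1 cultures gave 3 to 7 S phase genes higher and 0 to 4 lower. Mitotic genes ranged from 1 to 9 higher and 0 to 4 lower. The upper ends were reached without control library 1, where 28.6% of all genes rose and 30.4% fell. The 0 lower S phase genes came without control library 2 or any one Cd276KO library, where 8.57% to 12.4% of all genes fell. Without control library 3 it was 1, where 12.9% of all genes fell. In ID8 the ranges were 5 to 7 and 4 to 6 for S phase genes and 13 to 15 and 0 to 1 for mitotic genes (0 lower without control library 1 or 2 or Cd276KO library 3). Over all genes, 26.0% to 29.3% rose and 28.4% to 30.5% fell in these ID8 fits. In tumors 0 to 2 S phase genes were lower in Cd276KO (0 without control library 1 or any one Cd276KO library, 2 without control library 3). Without control library 3, 5.87% of all genes were lower. Control tumors against cultures gave 10 to 17 mitotic genes lower, where 10.1% to 18.4% of all genes were lower. Between lines the mitotic genes ranged from 5 to 9 higher and 1 to 3 lower, with 1 lower without Cd276KO library 3 of either line. Over all genes, 16.4% to 24% were higher and 17.4% to 25% lower in these fits between lines. Between tumors and cultures 0 to 2 S phase genes were lower (2 without control tumor 3, 0 without Cd276KO tumor 3). Of all genes, 2.4% and 0.436% were lower in these 2 fits.

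With limma, HM-1 cultures gave 7 S phase genes higher and 4 lower and 9 mitotic genes higher and 4 lower. Over all genes, limma called 29.4% higher and 31.2% lower there, against 11.6% and 16.1% in the main fit. Tumors gave 3 S phase genes lower with limma, where 11.3% of all genes were lower. The difference between tumor and culture effects gave 2 S phase genes and 1 mitotic gene lower, where 8.92% of all genes were lower. Median ratio size factors left 1 S phase gene lower in HM-1 cultures, where 15.7% of all genes were lower. No filter left 1 S phase gene lower and 1 mitotic gene higher there (7.86% lower and 4.66% higher over all genes). The same setting gave 2 S phase genes lower in tumors, where 1.94% of all genes were lower. DESeq2 and total counts each gave 2 S phase genes lower in tumors, where 7.755% and 4.14% of all genes were lower. The fit over all 18 libraries gave 1 S phase gene lower and 1 mitotic gene higher in HM-1 cultures, 3 and 3 S phase genes and 2 and 0 mitotic genes in ID8, 2 S phase genes higher and 2 lower in tumors, and 1 S phase gene lower and 2 mitotic genes higher and 1 lower between lines. The cause of these changes was not tested.

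Correlations between same-numbered libraries ran from -0.59 to 0.51 and were not above 0.1 for every pair of any comparison. The labels do not say that equal replicate numbers are paired, so the main fits were unpaired. These correlations cannot exclude a pairing. In both culture comparisons each library correlated best with its own number, but in HM-1 at only 0.009 to 0.014. In ID8 the values were 0.05 to 0.28, a hint from the data and not from the design. With a replicate block, 31.5% of all genes rose and 32.9% fell in ID8, against 29.4% and 31.3% in the main fit. With a replicate block, HM-1 cultures gave 1007 genes higher and 1462 lower in all, 0 S phase genes were lower and 1 mitotic gene was higher in HM-1 cultures, and 0 S phase genes were lower in tumors, where no gene of the table was called. For the members named and the promoter motif shares together, 998 of 1079 alternative values kept their direction and their status, called or not. Named genes of the further lists did not enter these numbers, and losses of their calls are given above for some of them. Another 25 gained a call, 41 lost one and none reversed. The other 15 either changed sign without a call in either fit or were motif shares in the shorter window.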
